A study of Mus musculus with 12 samples.

Results

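The cytokine-inducible SH2 protein CISH and the suppressors of cytokine signalling SOCS1, SOCS2 and SOCS3 are described here through the mRNA of their genes in mouse cytotoxic CD8+ T cells (CTL). The members were taken by symbol, Socs1, Socs2, Socs3 and Cish, with no threshold on their values, and they are 4 of the 11022 genes in the deposited table of FPKM (fragments per kilobase of exon, scaled to the library size). The 12 RNA sequencing samples are 3 cultures in each of 4 groups. All came from P14 mice, whose CD8+ T cells carry a transgenic T cell receptor (TCR) for the LCMV peptide gp33-41, and the study's methods describe female mice of 9 to 13 weeks and lymph nodes or spleens of 3 mice as the source of the 3 biological replicates. Cells were primed for 48 h with peptide, IL-2 and IL-12 and grown for a further 5 days in IL-2, so the CTL are in vitro expanded cells of 1 transgenic specificity.

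Unstimulated CTL received no new peptide. TCR cultures received 100 ng/mL peptide for 4 h. TCR + PI3Kdi cultures received the same peptide with 10 µM IC87114, an inhibitor of the PI3K catalytic subunit p110δ, and TCR + MEKi cultures received it with 2 µM PD184252, an inhibitor of MEK1/2, the kinases that activate ERK1/2. All 4 groups were kept in 20 ng/mL IL-2 throughout, and DMSO was the vehicle. The IL-2 receptor was therefore exposed to its ligand in the unstimulated cultures as well, and every comparison of the members is made on top of that exposure.

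Cytokines such as IL-2, IL-15, IL-6 and the interferons act through receptors whose bound JAK kinases phosphorylate STAT transcription factors. The CIS and SOCS proteins are inhibitors whose own genes are typically induced by STATs, which closes a negative feedback loop. Each has an SH2 domain that binds phosphorylated tyrosine and a SOCS box that recruits a ubiquitin ligase, and SOCS1 and SOCS3 can in addition inhibit JAK kinases directly. In T cells, CISH is a known STAT5 target downstream of IL-2 and restrains TCR and IL-2 family signalling, SOCS1 restrains interferon γ and common γ chain cytokines, SOCS2 is best known for restraining growth hormone signalling, and SOCS3 binds the shared receptor chain gp130 and restrains IL-6 family signals.

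Promoter sequences are shown because STAT factors and interferon regulatory factors are the textbook inducers of these genes. Of the 4 members, Cish, Socs1 and Socs3 matched the RefSeq promoter table (build GRCm38.p6). Each sequence runs 5′ to 3′ on the gene's strand from 250 bases before the annotated start to the first 30 bases of the transcript. Capitals mark matches, on either strand, to TTCNNNGAA, the spaced palindrome that STAT5 binds, or to a pair of GAAA spaced by 2 bases of any kind, the core repeat of interferon-stimulated response elements.
Cish, chr9:107296409-107296688, plus strand: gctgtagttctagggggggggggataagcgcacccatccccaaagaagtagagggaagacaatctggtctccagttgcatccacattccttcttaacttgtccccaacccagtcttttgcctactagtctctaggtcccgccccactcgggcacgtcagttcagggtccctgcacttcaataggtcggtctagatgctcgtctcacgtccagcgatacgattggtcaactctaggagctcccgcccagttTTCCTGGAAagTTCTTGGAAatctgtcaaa
Socs1, chr16:10785507-10785786, minus strand: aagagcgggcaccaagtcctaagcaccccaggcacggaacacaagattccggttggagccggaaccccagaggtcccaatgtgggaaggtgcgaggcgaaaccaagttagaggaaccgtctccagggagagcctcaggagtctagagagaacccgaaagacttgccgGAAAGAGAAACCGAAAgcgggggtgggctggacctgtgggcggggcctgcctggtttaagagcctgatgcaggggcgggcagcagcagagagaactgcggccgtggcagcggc
Socs3, chr11:117969337-117969616, minus strand: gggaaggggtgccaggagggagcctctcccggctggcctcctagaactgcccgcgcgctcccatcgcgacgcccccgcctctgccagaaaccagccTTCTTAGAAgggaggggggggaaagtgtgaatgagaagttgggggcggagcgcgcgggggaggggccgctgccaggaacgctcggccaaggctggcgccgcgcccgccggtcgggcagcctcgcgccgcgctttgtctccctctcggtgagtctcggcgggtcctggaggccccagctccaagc
The Cish sequence holds TTCCTGGAA and TTCTTGGAA, whose first bases are bases 1 and 12 of the transcript, so they do not overlap each other. The Socs1 sequence holds 2 overlapping matches to the GAAA pair that begin 83 and 77 bases before the start, and the Socs3 sequence holds TTCTTAGAA 154 bases before the start. None of the 3 holds GTAAACA, a core sequence bound by FOXO factors. Among 32851 promoters of 300 bases in the same table, 8.30% hold TTCNNNGAA at least once and 0.457% hold it 2 or more times, 3.44% hold the GAAA pair at least once and 0.225% 2 or more times, and 3.65% hold GTAAACA. These matches are letters in a window and were not tested for binding. The RefSeq starts of Cish and Socs3 used here lie inside the GENCODE gene spans given below, so the annotations place these starts differently. For Socs1 they coincide.

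The label of the cells was checked first. Of 9 markers of CD8+ T cells, 8 were measured, each with a group mean of at least 111 FPKM, and their sum was 16692.5 to 24250.1 FPKM per culture. Of 17 markers of other cell types, 3 were measured (Cd4, Itgax and Klrb1c) and summed to 2.14 to 7.67 FPKM, while the other 14 were not analysed here. Cd4 was at 0.440 to 0.990 FPKM in unstimulated cultures, 2.54 to 2.87 in TCR, 1.96 to 3.65 in TCR + PI3Kdi and 0.280 to 0.660 in TCR + MEKi cultures. Klrb1c, a natural killer cell receptor gene, was at 4.58 to 6.23 FPKM in unstimulated cultures, 1.63 to 1.88 in TCR, 2.03 to 2.43 in TCR + PI3Kdi and 1.31 to 1.93 in TCR + MEKi cultures. It was thus lower in the triggered than in the unstimulated cultures without overlap, as were Socs1 and Socs2, while Itgax stayed between 0.290 and 0.750 FPKM. The part of these markers in the results was not tested. In bulk samples such as these, fewer cells that express a gene and less of its RNA per cell cannot be told apart. The samples' FPKM summed to 470420 to 495945 in the unstimulated and 620715 to 666922 in the TCR cultures. When each sample was rescaled to a common sum (the TPM scale), the median gene moved from -0.01 to -0.41 on the log2 scale for TCR against unstimulated, from 0.02 to 0.19 for PI3Kdi against TCR, from 0.01 to 0.26 for MEKi against TCR and from -0.01 to 0.07 for MEKi against PI3Kdi. Values below are on the deposited scale unless the TPM scale is named.

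FPKM is divided by exon length, so the members can be ordered by level, and the order was Cish, Socs1, Socs2 and Socs3 in each of the 4 groups, judged by group means. Neighbouring members did not overlap in any group, although Socs1 came closest to Socs2 in TCR + PI3Kdi cultures, where the Socs1 values of 12.26 to 18.37 FPKM lay above Socs2 values of 9.89 to 10.63 FPKM. Cish ranked at the 96.3rd to 96.9th percentile of all genes in every group. The percentile of Socs1 was 91.3 in unstimulated, 71.1 in TCR, 60.1 in TCR + PI3Kdi and 84.8 in TCR + MEKi cultures. Socs3 stayed between the 34.5th and the 48.7th percentile.

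Cish (Entrez gene 12700, chromosome 9, 107296026 to 107302784, plus strand, mm10), whose product binds phosphorylated cytokine receptors, was at 187.35, 197.33 and 161 FPKM in the 3 unstimulated cultures and at 243.82, 212.4 and 235.89 FPKM in the TCR cultures. It was at 180.53, 166.59 and 181.82 FPKM with PI3Kdi and at 175.9, 183.63 and 174.49 FPKM with MEKi. The TCR cultures were the high group and overlapped none of the others, while the unstimulated, PI3Kdi and MEKi cultures overlapped one another. The group means were 182 ± 18.8, 231 ± 16.3, 176 ± 8.45 and 178 ± 4.92 FPKM (SD, n = 3 here and throughout). The exons of Cish overlap those of Gm17041 by 479 and of Gm17040 by 261 bases on the opposite strand, and 6.75% of the 100-base stretches of its transcripts are shared with these genes. Whether the counting used strand is not given in the sources used here.

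Socs1 (Entrez gene 12703, chromosome 16, 10782240 to 10785536, minus strand), which encodes the direct JAK inhibitor that restrains interferon γ signalling, was at 84, 79.63 and 75 FPKM in unstimulated and at 27.49, 21.24 and 24.09 FPKM in TCR cultures. With PI3Kdi it was at 18.37, 12.26 and 16.76 FPKM, and with MEKi at 46.3, 46.13 and 51.69 FPKM. No culture of any group overlapped those of another group, and the order from high to low was unstimulated, MEKi, TCR and PI3Kdi. The means were 79.5 ± 4.50, 24.3 ± 3.13, 15.8 ± 3.17 and 48.0 ± 3.16 FPKM in the order unstimulated, TCR, PI3Kdi and MEKi.

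Socs2 (Entrez gene 216233, chromosome 10, 95385362 to 95417180, minus strand) was at 26.37, 23.96 and 25.43 FPKM in unstimulated and at 9.04, 9.52 and 11 FPKM in TCR cultures. With PI3Kdi its values were 9.89, 10.63 and 10.62 FPKM, and with MEKi 18.57, 16.7 and 16.14 FPKM. The PI3Kdi cultures lay within the range of the TCR cultures, and the MEKi cultures lay between those and the unstimulated cultures without overlap. The means were 25.3 ± 1.21, 9.85 ± 1.02, 10.4 ± 0.424 and 17.1 ± 1.27 FPKM in the same order. Of its 100-base stretches, 2.31% are shared with Gm9847.

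Socs3 (Entrez gene 12702, chromosome 11, 117966079 to 117970047, minus strand), whose product acts at gp130 receptors, had the lowest range. That range was the narrowest in FPKM but not by percentile among all genes. Socs3 was at 9.19, 8.63 and 8.07 FPKM in unstimulated, 5.53, 5.77 and 6.63 FPKM in TCR, 5.87, 5 and 5.72 FPKM in PI3Kdi and 10.15, 9.25 and 11.16 FPKM in MEKi cultures. The TCR and PI3Kdi cultures overlapped, and the MEKi cultures lay above all others, the unstimulated cultures included. The means were 8.63 ± 0.560, 5.98 ± 0.578, 5.53 ± 0.465 and 10.2 ± 0.956 FPKM. The value of 5 FPKM corresponds to about 143 reads by an estimate from the steps of low values, the lowest of any member, against about 352 for Socs1, 843 for Socs2 and 8875 for Cish at their lowest. The estimate used GENCODE exon lengths (6419 bases for Cish and 9531 for Socs2), whereas the authors counted reads over RefSeq genes. Where these lengths differ, the read numbers are off in proportion, so they are rough.

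**Figure D1:**
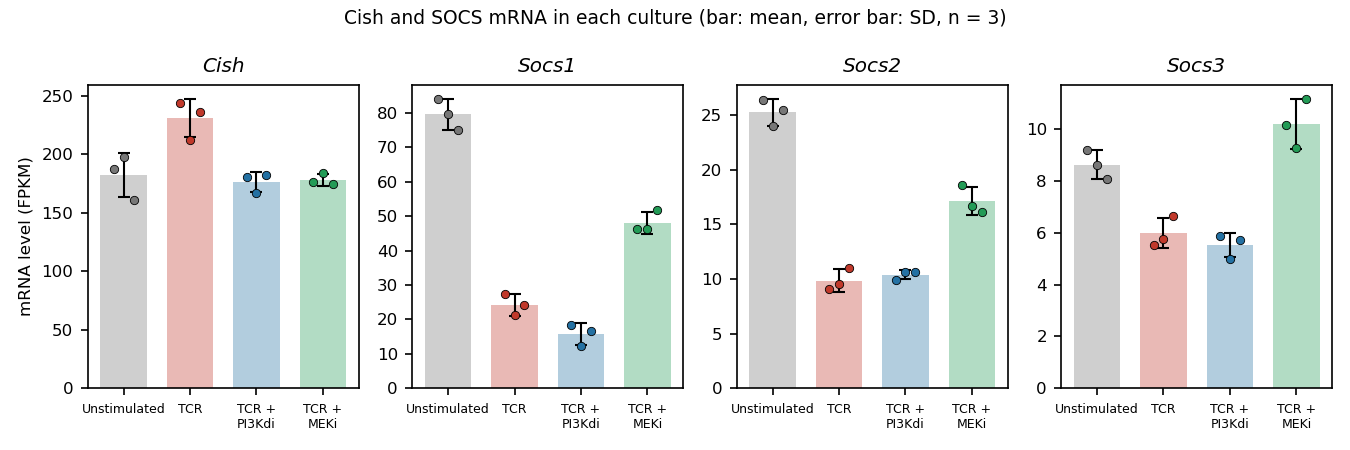
FPKM of Cish, Socs1, Socs2 and Socs3 (1 panel per gene, each with its own linear axis from 0) in unstimulated, TCR, TCR + PI3Kdi and TCR + MEKi CTL. Points are the 3 cultures, bars the mean and error bars the SD. Socs1 and Socs2 drop from 79.5 and 25.3 FPKM to 24.3 and 9.85 FPKM with TCR and stand in between with MEKi, whereas Cish is highest in the TCR cultures on this deposited scale and not on the TPM scale (-0.07 against unstimulated).

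To ask how antigen receptor triggering changed the inhibitors, TCR cultures were compared with unstimulated cultures by limma, with Benjamini-Hochberg adjustment over all 11022 genes. A gene was called when its adjusted p was under 0.05 and its change exceeded 2-fold. Socs1 fell 3.28-fold (log2 fold change -1.71, SE 0.12, adjusted p = 1.04e-08) and Socs2 fell 2.55-fold (-1.35, SE 0.08, adjusted p = 1.61e-09). Both were lower in 3 of 3 same-numbered cultures. For this and every later 3 of 3 of a member the groups did not overlap, so the count holds under any numbering. Both genes were also called lower on the TPM scale (-2.13 and -1.76), where 2276 of the 11022 genes were called lower. Thus 2 of 4 members were called lower and 0 higher, where 11.1% of all genes were called lower, 8.87% higher and 20.0% in either direction. All 4 members had an adjusted p under 0.05, as did 68.6% of all genes, and with quantile normalisation or TPM rescaling 3 of 4 did, Cish being the exception.

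Socs3 fell within the 2-fold threshold, by 0.52 on the log2 scale (SE 0.10, adjusted p = 0.000326), and was lower in 3 of 3 same-numbered cultures. Cish moved the other way on the deposited scale, by a log2 fold change of 0.35 (SE 0.07, adjusted p = 0.000696), and was higher in 3 of 3 same-numbered cultures. The direction of Cish depended on the scaling, since its log2 fold change was -0.07 on the TPM scale, against 0.09 with quantile normalisation (adjusted p = 0.428 and 0.329). The median log2 change of the 4 members was -0.94, against -0.01 for all genes.

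The second comparison asked how inhibition of PI3K p110δ altered the members in triggered cells. No member was called, against 1.88% of all genes (0.499% higher and 1.38% lower), and 2 of 4 had an adjusted p under 0.05, against 25.6% of all genes. Socs1 was lowered further, 1.55-fold (log2 fold change -0.63, SE 0.12, adjusted p = 0.00187), in 3 of 3 same-numbered cultures and with log2 fold changes of -0.75 to -0.46 when any 1 culture was left out. This change stood at the 3.47th percentile of the changes of all genes. Cish fell by 0.39 on the log2 scale (SE 0.07, adjusted p = 0.00150), in 3 of 3 same-numbered cultures. It passed after rescaling to TPM, at -0.20 (adjusted p = 0.0429), but not with quantile normalisation, at -0.22 (adjusted p = 0.0675).

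Socs2 and Socs3 did not pass the test on the deposited scale. The log2 difference of Socs2 was 0.08, with a 95% interval from -0.10 to 0.26 (adjusted p = 0.521), but on the TPM scale it was 0.26 and passed within 2-fold (adjusted p = 0.0461). That of Socs3 was -0.11, with an interval from -0.33 to 0.11 (adjusted p = 0.464), and was 0.07 on the TPM scale (adjusted p = 0.641). Differences of 2-fold lay outside both intervals.

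To ask how MEK1/2 acts on the members, MEKi cultures were compared with TCR alone. With MEKi, Socs1, Socs2 and Socs3 each rose with an adjusted p under 0.05 and by less than 2-fold, with Socs1 close to that threshold. Socs1 was 1.98-fold higher than with TCR alone (log2 fold change 0.99, SE 0.12, adjusted p = 2.70e-05), Socs2 was 1.73-fold higher (0.79, SE 0.08, adjusted p = 4.61e-06) and Socs3 was 1.69-fold higher (0.76, SE 0.10, adjusted p = 5.18e-05), each in 3 of 3 same-numbered cultures. These changes stood at the 98.9th, 97.4th and 97.1st percentiles of all genes. No member was called on the deposited scale, against 3.49% of all genes (0.980% higher and 2.51% lower), and 4 of 4 had an adjusted p under 0.05, against 37.1% of all genes, or 3 of 4 on the TPM scale.

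The call of Socs1 lay at the threshold. It passed after quantile normalisation (1.02) and when TCR replicate 1 (1.08), MEKi replicate 1 (1.01) or MEKi replicate 2 (1.02) was left out. On the TPM scale all 3 SOCS genes passed, with log2 fold changes of 1.25, 1.05 and 1.02, in a comparison where that scale moved the median gene to 0.26. Cish again went the other way and fell by 0.37 on the log2 scale (SE 0.07, adjusted p = 0.00122) in 3 of 3 same-numbered cultures. After rescaling to TPM the difference of Cish was -0.11 and did not pass (adjusted p = 0.224), and with quantile normalisation it was -0.23 and did (adjusted p = 0.0416).

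**Figure D2:**
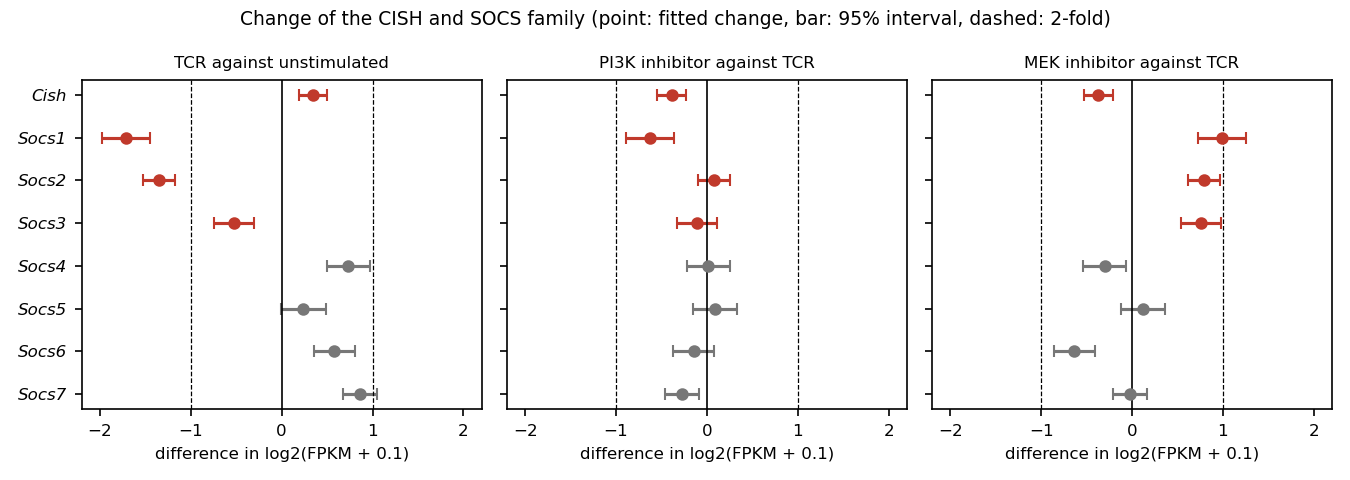
Fitted difference in log2(FPKM + 0.1) for Cish and Socs1 to Socs3 (red) and Socs4 to Socs7 (grey) in 3 comparisons (1 panel each). Bars are 95% intervals, the solid line is no change and dashed lines mark 2-fold. With MEKi, Socs1, Socs2 and Socs3 lie at 0.99, 0.79 and 0.76, to the right of 0, and Cish at -0.37.

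**Figure D3:**
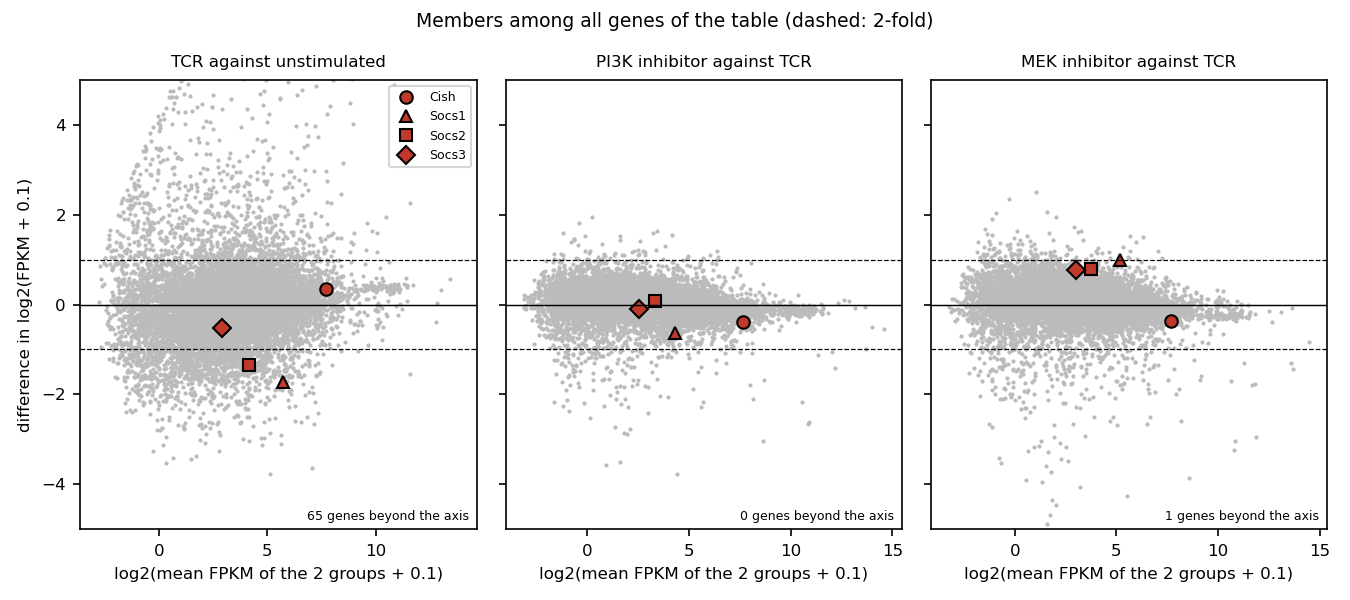
Difference in log2(FPKM + 0.1) (vertical axis) against log2 of the mean FPKM of both groups (horizontal axis) for all 11022 genes (grey) and the 4 members (red symbols), 1 panel per comparison. Dashed lines mark 2-fold, and genes beyond the vertical axis are counted in each panel. Socs1 lies below most genes of its level with TCR and with PI3Kdi, and above most with MEKi.

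The difference between the inhibitors was tested directly, MEKi against PI3Kdi, with the same peptide and time but with different compounds at 2 and 10 µM. Socs1 was 3.07-fold higher with MEKi (log2 fold change 1.62, SE 0.12, adjusted p = 2.61e-07), past the threshold under all 16 alternatives tried, at 1.45 to 1.74. It was the only member called, 1 of 4, against 3.09% of all genes. Socs2 and Socs3 were higher with MEKi within the 2-fold threshold, by log2 fold changes of 0.72 and 0.87 (adjusted p = 1.49e-05 and 1.75e-05), which made 3 of 4 members with an adjusted p under 0.05 against 28.9% of all genes. For Cish the difference was 0.01, with a 95% interval from -0.14 to 0.17 (adjusted p = 0.903), and its sign changed after quantile normalisation.

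The inhibited cultures were also set against unstimulated cultures. With PI3Kdi, Socs1 was 5.08-fold and Socs2 2.42-fold lower than unstimulated (log2 fold changes -2.34 and -1.27, adjusted p = 4.33e-10 and 4.98e-09), so 2 of 4 members were called against 14.6% of all genes, and 3 of 4 against 62.5% had an adjusted p under 0.05. With MEKi, Socs1 and Socs2 remained lower than unstimulated, within 2-fold (-0.73 and -0.56, adjusted p = 0.000131 and 3.68e-05), so 0 of 4 were called against 13.4% and 2 of 4 against 59.6% had an adjusted p under 0.05. Socs3 with MEKi was above unstimulated without overlap of the cultures, a log2 difference of 0.23 (95% interval 0.02 to 0.45) that missed the adjusted threshold (adjusted p = 0.0598). It passed with the replicate block (adjusted p = 0.0486), when the compared groups were fitted alone (adjusted p = 0.0467) and without MEKi replicate 2 (0.30, adjusted p = 0.0349). Each of these settings made 3 of 4 members. On the TPM scale the Socs3 difference was 0.09 (adjusted p = 0.533). Cish differed from unstimulated by -0.04 with PI3Kdi and by -0.03 with MEKi (adjusted p = 0.646 and 0.777), with intervals from -0.20 to 0.12 and from -0.18 to 0.13. On the TPM scale the difference of Cish with PI3Kdi was -0.27 and passed (adjusted p = 0.00506).

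For the members called after TCR triggering, the share of the fall in FPKM that was left with an inhibitor was computed from group means. For Socs1 it was 115% with PI3Kdi, at 114% to 116% in same-numbered cultures, and 57.0% with MEKi, at 45.8% to 66.7%. For Socs2 it was 96.6% with PI3Kdi, at 92.3% to 103%, and 52.7% with MEKi, at 45.0% to 64.4%. The same TCR and unstimulated cultures enter all 4 shares.

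The balance of the inhibitor mRNAs shifted toward Cish after triggering. Cish held 61.6% of the summed FPKM of the 4 members in unstimulated, 85.2% in TCR, 84.8% in PI3Kdi and 70.3% in MEKi cultures, while Socs1 held 26.9%, 8.96%, 7.59% and 19.0%. The ratio of Cish to Socs1 FPKM, which does not depend on the scaling of a sample, was 2.29 ± 0.172 in unstimulated, 9.55 ± 0.602 in TCR, 11.4 ± 1.94 in PI3Kdi and 3.72 ± 0.310 in MEKi cultures. The ratios of unstimulated, MEKi and TCR cultures did not overlap, and those of TCR and PI3Kdi cultures did. The summed FPKM of the 4 members was 295 ± 22.4 in unstimulated, 271 ± 19.4 in TCR, 208 ± 11.7 in PI3Kdi and 253 ± 2.4 in MEKi cultures.

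The other SOCS genes, whose products act mainly outside the JAK-STAT feedback loop or are less studied there, were all measured, and 0 of 4 were called in any of the 6 comparisons. Over these comparisons the share of all genes called ran from 1.88% (PI3Kdi against TCR) to 20.0% (TCR against unstimulated). Socs4 and Socs5, linked to epidermal growth factor receptor turnover, were at 8.78 ± 0.527 and 3.43 ± 0.248 FPKM in unstimulated and at 14.7 ± 1.81 and 4.06 ± 0.267 FPKM in TCR cultures. Socs6 and Socs7 went from 6.20 ± 0.446 and 5.52 ± 0.0862 FPKM to 9.31 ± 0.550 and 10.1 ± 0.525 FPKM. Within the 2-fold threshold, Socs4, Socs6 and Socs7 rose with TCR (log2 fold changes 0.73, 0.58 and 0.86, adjusted p = 3.28e-05, 0.000198 and 5.25e-07), which is opposite in sign to Socs1, Socs2 and Socs3. On the TPM scale Socs4 and Socs7 passed as well (0.32 and 0.45, adjusted p = 0.0257 and 0.00107), and Socs6 did not (0.17, adjusted p = 0.180). Socs5 differed by 0.24 (adjusted p = 0.0735) and by -0.16 on the TPM scale.

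With PI3Kdi, Socs7 fell by 0.27 on the log2 scale (adjusted p = 0.0344, or -0.09 and adjusted p = 0.507 on the TPM scale), and the log2 differences of Socs4, Socs5 and Socs6 were 0.01, 0.09 and -0.15 (adjusted p = 0.938, 0.619 and 0.339). With MEKi, Socs6 fell from 9.31 to 6.0 ± 0.879 FPKM (log2 fold change -0.63, adjusted p = 0.000342, and -0.38 on the TPM scale) and Socs4 to 11.9 ± 1.55 FPKM (-0.30, adjusted p = 0.0458, or -0.04 and adjusted p = 0.797 on the TPM scale). Socs5 and Socs7 differed from TCR alone by 0.12 and -0.02 (adjusted p = 0.446 and 0.865). The log2 changes of these 4 with MEKi thus ran from -0.63 to 0.12 on the deposited scale, where those of Socs1, Socs2 and Socs3 ran from 0.76 to 0.99.

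The partners that turn a SOCS box protein into a ubiquitin ligase were measured in full. They are elongin B and elongin C (Tceb2 and Tceb1 in the table), the scaffolds Cul5 and Cul2 and the RING proteins Rnf7 and Rbx1. Of these 6, 0 were called in any comparison, where 20.0% of all genes were called with TCR, 1.88% with PI3Kdi and 3.49% with MEKi. Their log2 changes ran from -0.0020 to 0.34 with TCR, from -0.16 to 0.04 with PI3Kdi and from -0.41 to -0.0020 with MEKi. In each of these 3 comparisons, 5 of 6 signs turned over on the TPM scale. The gene with the lowest change of the list with MEKi, Cul5, was at 11.1 ± 0.906 FPKM with TCR and at 8.30 ± 0.0781 FPKM with MEKi. It is named for that value, outside the rule for naming genes, and was not called.

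Among 11 other negative regulators of JAK-STAT signalling, 2 were called lower after TCR triggering, 0 with PI3Kdi and 2 higher with MEKi. The shares of all genes were 11.1% called lower with TCR, 1.88% called with PI3Kdi and 0.980% called higher with MEKi. The list medians were 0.13, 0.01 and 0.09 on the log2 scale. Pias3, an inhibitor of STAT3, fell from 5.44 ± 0.622 to 1.92 ± 0.0252 FPKM with TCR (log2 fold change -1.45). Usp18, a deconjugase that dampens type I interferon receptors, fell from 20.3 ± 6.29 to 7.35 ± 1.43 FPKM (-1.43) and rose with MEKi to 15.1 ± 3.82 FPKM (1.02, or 0.97 after quantile normalisation and then not called). Ptpn6, the phosphatase SHP-1, rose with MEKi from 30.7 ± 2.43 to 70.0 ± 4.88 FPKM (1.19, adjusted p = 2.23e-08).

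Of 10 JAK and STAT genes, 3 were called higher and 0 lower with TCR (2 higher and 1 lower on the TPM scale). The shares of all genes were 8.87% higher and 11.1% lower on the deposited scale. Stat5a, whose product carries IL-2 signals to genes such as Cish, rose from 11.7 ± 0.618 to 124 ± 4.00 FPKM (log2 fold change 3.4) and Stat5b from 14.2 ± 0.420 to 37.9 ± 0.907 FPKM (1.41, or 1.00 on the TPM scale and then not called). Jak2 rose from 25.3 ± 2.75 to 121 ± 14.5 FPKM (2.25). PI3Kdi called 0 of the 10 in either direction, against 1.88% of all genes, but 5 had an adjusted p under 0.05, against 25.6% of all genes. MEKi called 1 of the 10 higher and 1 lower, against 0.980% and 2.51% of all genes. Stat5a had the lowest change of the list with PI3Kdi, just inside the 2-fold threshold (log2 fold change -0.99). It was at 62.2 FPKM with PI3Kdi, without overlap with the TCR cultures. With MEKi, Stat3, the STAT downstream of gp130, rose from 100.4 ± 2.28 to 205 ± 0.950 FPKM (1.03), and Jak2 fell to 55.7 ± 2.00 FPKM (-1.11, inside 2-fold after rescaling to TPM or quantile normalisation).

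Of 24 listed receptor chains, 18 were measured, and 1 was called higher and 4 lower with TCR, against 0 higher and 9 lower on the TPM scale. The 1 called higher was Il6st, the gp130 gene, from 1.84 ± 0.349 to 3.94 ± 0.680 FPKM (log2 fold change 1.06). As shares of all genes, 8.87% were called higher and 11.1% lower with TCR, 0.499% higher with PI3Kdi and 0.980% higher with MEKi. Il18r1 is in this list although its product signals through MyD88 and not through JAKs, and it was called in none of the 3 comparisons with TCR. The receptor chains for interferon γ fell, Ifngr1 from 195 ± 6.45 to 50.1 ± 1.24 FPKM (log2 fold change -1.96) and Ifngr2 from 3.85 ± 0.474 to 0.560 ± 0.243 FPKM (-2.64), as did Il10rb (-2.03) and Ifnar2 (-1.55). With PI3Kdi, Ifngr1 was the 1 chain called, higher at 115 ± 3.57 FPKM (1.2). With MEKi, Il12rb2 rose from 41.6 ± 1.22 to 119 ± 18.9 FPKM (1.5) and Il7r from 10.2 ± 0.245 to 22.9 ± 2.9 FPKM (1.15), the 2 chains called, against 4 higher on the TPM scale. The 3 IL-2 receptor chains, named after their values were seen because IL-2 was in every culture, were at 281 ± 23.2 (Il2ra), 602 ± 68.0 (Il2rb) and 259 ± 6.30 FPKM (Il2rg) in unstimulated and 434 ± 15.6, 387 ± 9.61 and 366 ± 12.7 FPKM in TCR cultures, none of them called on the deposited scale, though Il2rb was called lower both after rescaling to TPM (-1.05) and after quantile normalisation (-1.08).

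Of 24 listed ligands, 15 were measured, and 12 were called higher and 1 lower with TCR, 10 lower with PI3Kdi and 7 lower with MEKi. The shares of all genes were 8.87% higher and 11.1% lower with TCR, 1.38% lower with PI3Kdi and 2.51% lower with MEKi. The list holds Csf1, whose receptor is itself a tyrosine kinase and not coupled to JAKs, and without it 11 of 14 were called higher with TCR and the other counts stayed as given. Il2 was at 0 to 0.190 FPKM in unstimulated cultures, 705 ± 57.3 FPKM with TCR, 87.2 ± 24.1 FPKM with PI3Kdi and 50.7 ± 17.1 FPKM with MEKi. Ifng, the ligand whose signal SOCS1 restrains, was at 72.4 ± 3.33, 29597 ± 1379, 20159 ± 1125 and 16617 ± 1427 FPKM, above the unstimulated level in every triggered culture.

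Known targets of STAT5 and of interferons were counted in lists that hold none of the 4 members. Of 15 STAT5 targets, 6 were called higher and 3 lower with TCR, with a median log2 change of 0.73, but 3 higher and 3 lower on the TPM scale. On the deposited scale the shares of all genes were 8.87% higher and 11.1% lower with TCR, 1.38% lower with PI3Kdi and 2.51% lower with MEKi. Bcl6 (2.58), Lta (1.60) and Bcl2l1 (1.58) rose and Ccnd3 fell by 2.65 on the log2 scale. The rise of Bcl6 was from a low level, 0.437 ± 0.0462 FPKM, to 3.14 ± 0.509 FPKM. The list does not separate targets that STAT5 raises from targets that it lowers. Lta was the 1 gene of the list called with either inhibitor, lower in both (-1.79 and -1.98).

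Of 15 listed interferon-induced genes, 14 were measured, and 8 were called lower and 2 higher with TCR, with a median of -1.13 (10 lower and 0 higher on the TPM scale). Deposited values gave shares of all genes of 11.1% lower and 8.87% higher with TCR, 0.499% higher with PI3Kdi and 0.980% higher with MEKi. Of the interferon-induced genes, Gbp4, Igtp and Irf1 fell from 127 ± 4.99, 240 ± 9.37 and 54.5 ± 3.26 FPKM to 26.7 ± 3.41, 53.4 ± 3.50 and 12.4 ± 0.891 FPKM. With PI3Kdi, 1 of this list was called, Gbp2, higher from 42.0 ± 6.43 to 90.2 ± 14.8 FPKM (1.10). With MEKi, 2 were called higher, Gbp5 from 4.48 ± 0.627 to 14.3 ± 2.60 FPKM (1.64) and Cxcl10 from 2.71 ± 0.760 to 5.47 ± 0.530 FPKM (1.02, or 0.93 after quantile normalisation and then not called).

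**Figure D4:**
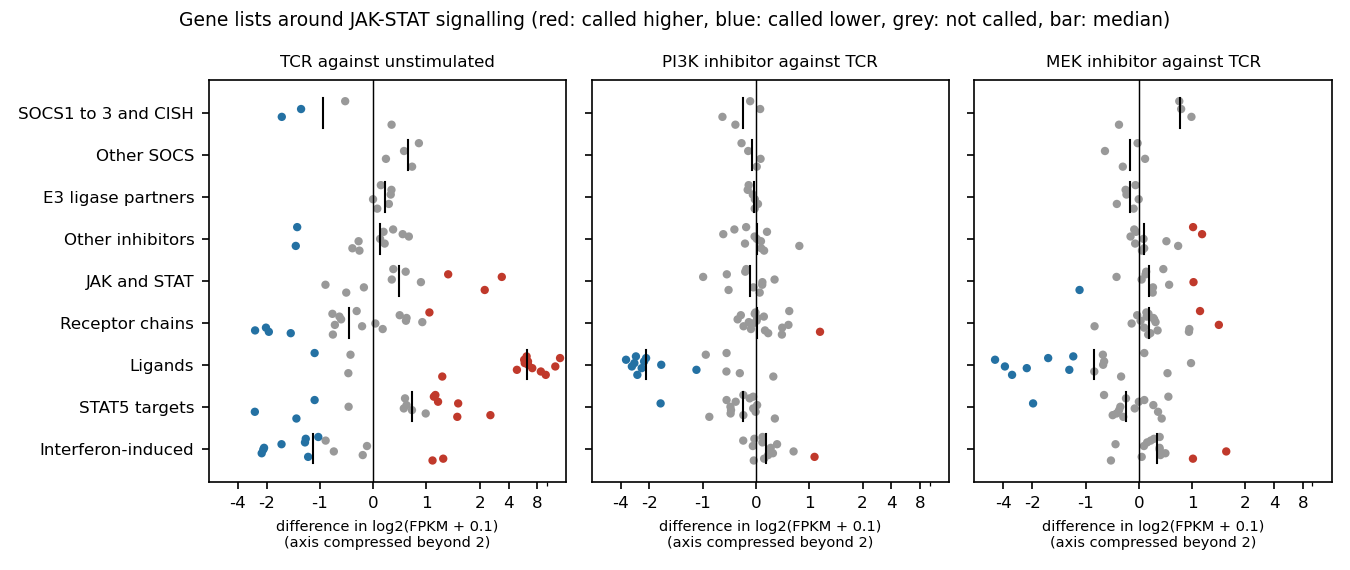
Difference in log2(FPKM + 0.1) for the measured genes of each gene list (rows, where the ligands include Csf1 and the receptor chains Il18r1, which do not act through JAKs) in 3 comparisons (panels), on an axis that is linear to 2 and compressed beyond. Points are genes, red where called higher, blue where called lower and grey otherwise, and bars are list medians. With TCR, 12 ligands are called higher while 8 interferon-induced genes and 2 of the 4 members are called lower, against 8.87% and 11.1% of all genes.

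The genes with the most alike profiles were found by the root-mean-square difference of centred log2(FPKM + 0.1) values over the 12 samples, among 9898 genes with a mean of at least 1 FPKM. For Socs1 they were Klhl30 (0.227), Exoc3l (0.248) and Gm98 (0.287), whose group means ran from 1.41 to 12.4 FPKM. For Socs2 the 3 included Slc52a3 (0.129) and Entpd1 (0.133), and they were for Socs3 H2-Q6 (0.0940), Treml2 (0.108) and Themis (0.111), and for Cish Fmnl3 (0.0803), Tgfb1 (0.0832) and Csnk2b (0.0881). Among the members themselves, Socs2 ranked 59th in likeness to Socs1 (0.452), Socs3 604th (0.633) and Cish 5527th (0.960). The ranks depend on the side taken, since Socs1 ranked 2233rd in likeness to Socs2, 8491st to Socs3 and 9558th to Cish. Small values for Cish and Socs3 go with profiles that vary little over the groups.

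**Figure D5:**
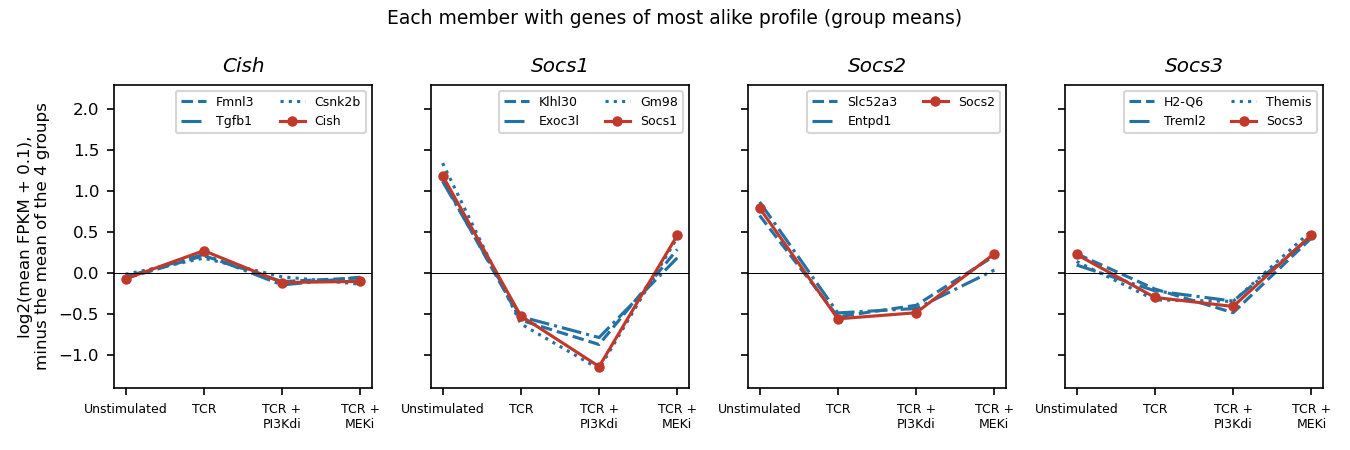
Group means as log2(mean FPKM + 0.1), minus the mean of the 4 groups, for each member (red) and the genes named as most alike over the 12 samples (blue lines). Socs1 and its alike genes share a high unstimulated level, a low TCR and PI3Kdi level and an intermediate MEKi level, whereas the profile of Cish peaks with TCR on the deposited scale (not on the TPM scale, -0.07 against unstimulated) and is flat otherwise.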

How the data were processed

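RNA was sequenced from 12 cultures of mouse CTL as 100-base reads from a TruSeq Stranded mRNA library. The authors aligned reads to mm10 with STAR 2.4.2a, counted them per RefSeq gene with Subread 1.5.0, removed genes of low count (filterByExpr), applied TMM scaling in edgeR and deposited FPKM computed with the length of each gene's merged exons. The counts were not used here. Steps between low FPKM values gave an estimated effective depth of 7860000 to 13360000 reads per sample, without resolving whole reads, so no count model was fitted. An FPKM value alone carries no counting error.

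The deposited FPKM were analysed as log2(FPKM + 0.1), so changes of low genes are understated. A separate mean per group was fitted to all 11022 genes and 12 samples with limma 3.58.1 in R 4.3.3 (eBayes with a trend), p-values were adjusted over all genes by the Benjamini-Hochberg method, and genes were called at an adjusted p under 0.05 and a change over 2-fold. The script was tested on simulated data. Groups and replicate numbers came from the sample labels. The labels do not say whether equal numbers mark 1 mouse. Deviations of same-numbered cultures correlated at 0.239 to 0.451 for PI3Kdi against TCR and at 0.122 to 0.182 for MEKi against TCR. For MEKi against PI3Kdi they correlated at 0.137 to 0.149, and for MEKi against unstimulated at 0.117 to 0.147. In these comparisons all 3 pairs were above 0.1. Not all pairs were for TCR against unstimulated (0.0037 to 0.153) or PI3Kdi against unstimulated (-0.0615 to 0.114). Shared mice would link the same numbers in every group, so pairing cannot hold in some comparisons only. These correlations alone therefore do not settle whether the numbers pair the cultures. Gbp3, named after its values were seen, was lowest in replicate 1 of all 4 groups. It was at 23.35 (unstimulated), 16.12 (TCR), 23.45 (PI3Kdi) and 26 FPKM (MEKi) there. Replicates 2 and 3 of the 4 groups were at 46.88 to 59.61 FPKM. Its values thus followed the replicate number in every group, and whether the numbers mark 1 mouse was not tested. The main fit used no pairing, and the replicate block is the fit that uses it.

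The members were taken by symbol with no threshold on a value, but the family and the pathway lists were chosen with earlier results of these data known. Genes named from the lists are up to 4 called genes per list and comparison with the largest log2 change and at least 1 FPKM in a compared group, beside all other SOCS genes and the 3 most alike genes of each member. The 3 IL-2 receptor chains, Il6st, Cul5 and Gbp3 are named outside this rule, as is Stat5a for PI3Kdi against TCR. Alternatives were the pseudocount, a filter on low values, the TPM scale, quantile normalisation, a replicate block, fitting only the 2 groups compared, no trend, no fold threshold, a test against 2-fold (limma treat) and leaving out each culture. Gene positions came from GENCODE for mm10, matched by symbol, and promoters from RefSeq. Results for 2 genes that the lists or rules would have named are not reported here.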

Additional observations from a re-analysis of the deposited data

Results flagged for a closer look

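Socs1 responded in opposite directions to the inhibitors, and the difference between their effects was itself tested. Relative to TCR alone it was lower with PI3Kdi in 3 of 3 same-numbered cultures (log2 fold change -0.63) and higher with MEKi in 3 of 3 (0.99), and the effect of MEKi minus that of PI3Kdi was 1.62 on the log2 scale (SE 0.12, limma adjusted p = 2.61e-07). In FPKM, the PI3Kdi cultures were at 12.26 to 18.37 and the MEKi cultures at 46.13 to 51.69. Both effects use the same TCR cultures, which cancel in the direct difference, and its cause was not tested.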

How the results depend on the processing

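Every call of Socs1 and Socs2 with TCR, and of Socs1 for MEKi against PI3Kdi, held under the 16 alternatives tried. Of 384 values recomputed for single genes, 357 kept direction and side of the threshold. The number of members called moved as follows. Without a fold threshold it was 4, 2, 4, 3, 3 and 2 for TCR against unstimulated, PI3Kdi against TCR, MEKi against TCR, MEKi against PI3Kdi, PI3Kdi against unstimulated and MEKi against unstimulated. For MEKi against TCR it was 3 on the TPM scale, 1 after quantile normalisation and 0 to 1 when a culture was left out. Cish turned over for TCR against unstimulated on the TPM scale (-0.0671), for MEKi against PI3Kdi after quantile normalisation (-0.0085) and without MEKi replicate 2 (-0.0081) or PI3Kdi replicate 2 (-0.0258), and without unstimulated replicate 2 for PI3Kdi and MEKi against unstimulated (0.0206 and 0.0351). Leaving out 1 culture at a time gave Cish ranges of -0.0258 to 0.0373, -0.126 to 0.0206 and -0.112 to 0.0351 in these 3 comparisons. Socs3 turned over for PI3Kdi against TCR on the TPM scale (0.0699). The share of the Socs1 fall left with PI3Kdi was 107.7% on the TPM scale. The causes were not tested.

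The genes called over the whole table, in the order TCR against unstimulated, PI3Kdi against TCR, MEKi against TCR, MEKi against PI3Kdi, PI3Kdi against unstimulated and MEKi against unstimulated, numbered 1405, 90, 201, 150, 979 and 873 with a pseudocount of 1, 7559, 2818, 4090, 3185, 6887 and 6571 with no fold threshold, and 1174, 27, 106, 64, 803 and 739 with limma treat, against 2202, 207, 385, 341, 1608 and 1478. Called genes were higher and lower on the TPM scale in numbers of 647 and 2276 with TCR (978 and 1224 as deposited), 119 and 107 for PI3Kdi against TCR (55 and 152), 323 and 202 for MEKi against TCR (108 and 277), 197 and 166 for MEKi against PI3Kdi (153 and 188), 623 and 1272 for PI3Kdi against unstimulated (789 and 819) and 660 and 1003 for MEKi against unstimulated (766 and 712). With the replicate block the pairing changed no call of a member at 2-fold, but Socs3 for MEKi against unstimulated then had an adjusted p of 0.0486, and the called genes numbered 2206, 209, 389, 349, 1610 and 1478.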
